A study of Mus musculus with 18 samples.

Results

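Oxidative phosphorylation genes were taken from the count table by name, as every gene whose symbol starts with Nduf, Uqcr, Atp5, Cox4 to Cox8, mt-Nd, mt-Co, mt-Cytb or mt-Atp, together with Sdha, Sdhb, Sdhc, Sdhd and Cyc1, if it held at least 200 counts summed over all libraries. Of 114 names that matched, 98 passed this minimum, out of 50584 genes in the table. The 98 were 91 nuclear and 7 mitochondrially encoded genes, and all of them were among the 16598 genes that could be tested. The counts that chose them ran from 215 for the pseudogene Atp5l2-ps and 397 for the pseudogene Uqcrh-ps2 upwards. Just under the minimum lay Cox4i2 with 195 counts and the pseudogene Uqcrh-ps1 with 182. RNA was sequenced from whole choroid plexus of MRL/lpr and MRL/+ mice, a vascularised fold in each brain ventricle whose epithelium secretes cerebrospinal fluid. MRL/lpr mice are homozygous for lpr, a loss-of-function allele of the death receptor gene Fas, and develop a lupus-like disease, and MRL/+ mice share the MRL background without that allele. There were 6 libraries of MRL/lpr and 3 of MRL/+ at 12 weeks of age, and again 6 and 3 at 16 weeks, with no treatment named in the labels. Whether each library came from its own animal is not stated in the labels. All p-values below therefore rest on the spread among these libraries, which may be technical.

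Oxidative phosphorylation makes most of a cell's ATP. Complex I (NADH dehydrogenase) and complex II (succinate dehydrogenase) feed electrons through complex III (cytochrome bc1) and cytochrome c to complex IV (cytochrome c oxidase), and the proton gradient that complexes I, III and IV build drives complex V (ATP synthase). Subunits come from both genomes: mitochondrial DNA encodes core subunits of complexes I, III, IV and V, while complex II and all other subunits are nuclear. Choroid plexus epithelium is rich in mitochondria, since it moves ions and water against gradients.

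Libraries held between 11164284 and 14602253 counts. The lpr allele is a transposon insertion in an intron of Fas, so counts over the whole gene do not check it, and they overlapped: 1.15 to 5.09 CPM (counts scaled to library size, with sizes adjusted by the trimmed mean method TMM) in MRL/lpr and 1.10 to 2.46 CPM in MRL/+. Markers of the labelled tissue were abundant: the summed level of the choroid plexus epithelium markers other than Ttr lay between 36863 and 94939 CPM, and none of the 12 markers was at 0. A library of MRL/+ at 16 weeks, replicate 1, stood apart with a summed level of 629 CPM over 8 skeletal muscle markers, against at most 4.97 elsewhere. Replicate 1 of MRL/+ at 12 weeks had the highest sums of 6 neuron markers (562 CPM) and of 6 cerebellum markers (472 CPM). In the other libraries these sums ran from 27.8 to 443 CPM and from 80.1 to 275 CPM. Replicates 1 and 4 of MRL/lpr at 12 weeks had pineal marker sums of 72.9 and 63.7 CPM, against at most 14.4 in the other libraries. These 2 libraries and replicate 1 of MRL/+ at each age are the 4 libraries with transcripts of other tissues that are left out below. Libraries with neuron marker sums up to 443 CPM stayed in.

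Of the 13 protein genes of mitochondrial DNA, 7 were counted in depth and 6 were at or near 0. The total counts over the 18 libraries were 7155031 for mt-Co1, the catalytic subunit of complex IV, 4003831 for mt-Cytb, the only mitochondrially encoded subunit of complex III, and 2130934, 1456986, 1521203, 1355754 and 471010 for mt-Nd1, mt-Nd2, mt-Nd4, mt-Nd5 and mt-Nd6, membrane subunits of complex I. The remaining genes fell short of the minimum: mt-Co2 had 4 counts, mt-Atp6 3, mt-Co3 2, and mt-Nd3, mt-Nd4l and mt-Atp8 had 0. A count of 0 allows up to 3 counts in a library, which is 0.205 to 0.269 CPM, by counting error only. No mitochondrially encoded subunit of complex V and only mt-Co1 of complex IV could therefore be described.

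The genes at or near 0 lie next to each other in mitochondrial DNA, and a near-identical stretch is annotated in the nuclear genome on the minus strand of chr1:24611535-24616197 (GRCm38, GENCODE M21), where 7 gene models cover it. The models Gm28661, Gm10925, Gm28437, Gm28438 and Gm10222 cover at least 99.0% of mt-Co2, mt-Atp6, mt-Co3, mt-Nd3 and mt-Nd4l, with 1 mismatch in all, in mt-Nd3. The copy also holds 31.8% of mt-Co1 (Gm29216) and 63.6% of mt-Nd4 (Gm28439), while mt-Nd1, mt-Nd2, mt-Nd5, mt-Nd6 and mt-Cytb have no annotated copy there. No gene model of the copy was matched to mt-Atp8, whose end overlaps mt-Atp6. The rest of mt-Atp8 lies between mt-Co2 and mt-Atp6. On chromosome 1 the models of these neighbours leave the bases between 24614651 and 24614885 without a model. Whether that stretch holds a copy of mt-Atp8 was not checked. The stretches below show how alike the pairs are. Bases that differ are in capitals, positions are counted from 1 at the gene's start, and each line gives 60 bases of the coding strand, from the start of mt-Nd3 and mt-Co3 and from the start of the copied part of mt-Co1.
mt-Nd3: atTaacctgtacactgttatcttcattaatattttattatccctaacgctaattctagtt
Gm28438: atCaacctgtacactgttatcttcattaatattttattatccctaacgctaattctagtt
mt-Co3: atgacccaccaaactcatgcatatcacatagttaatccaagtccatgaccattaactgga
Gm28437: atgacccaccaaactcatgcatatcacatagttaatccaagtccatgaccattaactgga
mt-Co1: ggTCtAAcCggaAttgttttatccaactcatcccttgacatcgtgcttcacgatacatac
Gm29216: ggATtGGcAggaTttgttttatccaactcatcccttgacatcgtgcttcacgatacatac

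The single difference of mt-Nd3 was T3C, and the stretch of mt-Co3 had none. The differences of mt-Co1 were T1056A, C1057T, A1059G, A1060G, C1062A and A1066T, all at the edge of the copied part. The chromosome 1 model of mt-Nd3, the pair with a mismatch, held 1609 counts in all and 32 to 195 per library, whereas mt-Nd3 itself held 0. Models without any mismatch held fewer, from 59 counts for Gm10222 to 347 for Gm28661. How reads that align to several places were counted is not given in the sources used here, and its part in these zeros was not tested. Levels of mt-Co1 and mt-Nd4, which are copied in part, may miss reads, so they are best compared between libraries and not with other genes.

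**Figure D1:**
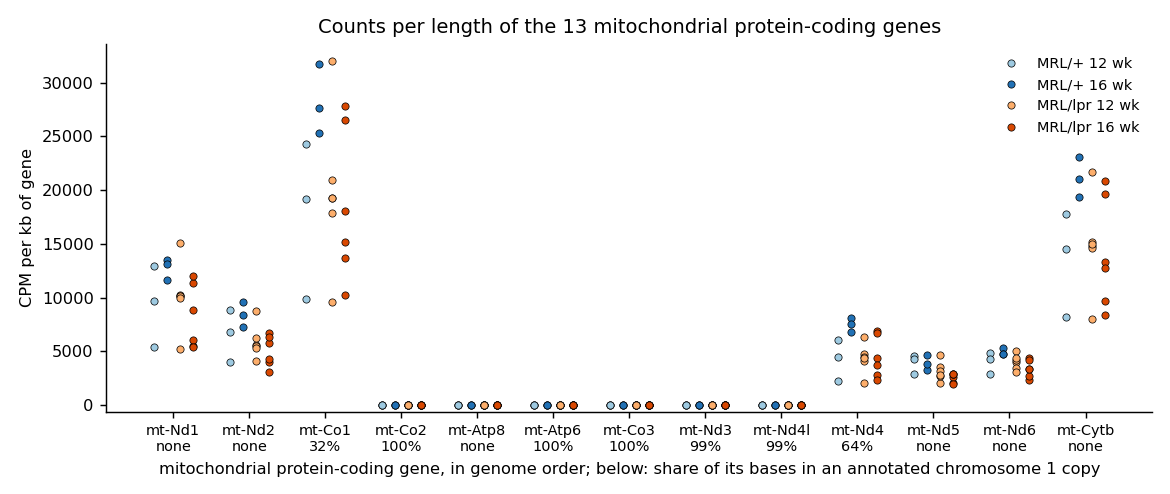
Level of each mitochondrial protein gene in CPM per kb of gene (vertical axis, linear), in genome order, with 1 point per library and colours for the 4 groups; below each name stands the share of its bases found in an annotated chromosome 1 copy. The 5 genes copied over at least 99.0% of their bases lie at 0, as does mt-Atp8, to which no gene model of the copy was matched. The 7 genes counted in depth lie well above 0, with the levels of the partly copied mt-Co1 and mt-Nd4 possibly missing reads.

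Levels were compared between genes only per kb of the exon length listed in the table. This length sums every exon counted for a gene, which lowers the level of a gene with long exons in minor transcripts. Of the mitochondrial genes without a copy, mt-Cytb averaged 15437 CPM per kb over the 18 libraries and mt-Nd5, the lowest, 3217, both above every nuclear gene of the 91. The partly copied mt-Co1 and mt-Nd4 averaged 20462 and 4910 CPM per kb, levels that may miss reads and were not ranked. The highest nuclear gene was Cox8a, a small subunit of complex IV, with 929 CPM per kb, followed by Ndufa1, an accessory subunit of complex I, with 804, and Uqcr10, a small subunit of complex III, with 649. In complex V the highest was Atp5h, the stator subunit d, with 425 CPM per kb, and in complex II Sdhd, a membrane anchor, with 211. The lowest of the 78 subunit genes within each complex were Ndufab1, the acyl carrier protein that also serves complex I, with 5.82 CPM per kb, Sdhc, the other membrane anchor of complex II, with 50.9, Uqcrc1, a core protein of complex III, with 52.0, Cox5a of complex IV with 15.03, and Atp5l, subunit g of complex V, with 0.922. Atp5l held 50 to 111 counts per library, and its pseudogenes Atp5l2-ps and Atp5l-ps1 are 99.4% and 98.4% identical to it over their length, so its level is uncertain. The level of Ndufab1 is uncertain too. Its exon length is 6883 bases against a coding length of 468, and its pseudogene Ndufab1-ps is 98.1% identical to it over 468 bases. The library kit does not mark strand. The gene mt-Nd6 lies on the opposite strand, at positions 13552 to 14070, and overlaps only the end of mt-Nd5, which stops at 13565. Along its whole length, reads of mt-Nd6 cannot be told apart from reads of RNA made from the other strand, so its level is uncertain.

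At 16 weeks, the summed levels of both the nuclear and the mitochondrial genes were lower in MRL/lpr than in MRL/+, without overlap between the groups, when scaled with TMM, and by a like amount in both sets. When the libraries were scaled to the epithelium markers instead, the log2 differences of the sums were 0.02 for the nuclear and 0.00284 for the mitochondrial genes. The median log2 fold change over all genes tested was then 0.75. The sum of the 91 nuclear genes was 28262, 27041 and 24653 CPM in MRL/+ replicates 1, 2 and 3, and 11247 CPM at the lowest, 16408 at the median and 23172 at the highest in MRL/lpr. The mean was 1.59-fold lower in MRL/lpr, a log2 difference of -0.67 (SD of log2 values 0.39 in MRL/lpr, n = 6, and 0.10 in MRL/+, n = 3). The 7 mitochondrial genes summed to 120749, 102388 and 103233 CPM in MRL/+ and to 45398, 63675 and 101791 CPM at the lowest, median and highest of MRL/lpr. Their log2 difference was -0.69, with the highest MRL/lpr library just under the lowest MRL/+ library. The ratio of mitochondrial to nuclear sums was 4.08 ± 0.26 in MRL/+ (SD, n = 3) and 4.03 ± 0.40 in MRL/lpr (SD, n = 6), and the groups overlapped. These sums were chosen with results of the data known and carry no test. In whole tissue, fewer cells of a type and less RNA per cell cannot be told apart.

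**Figure D2:**
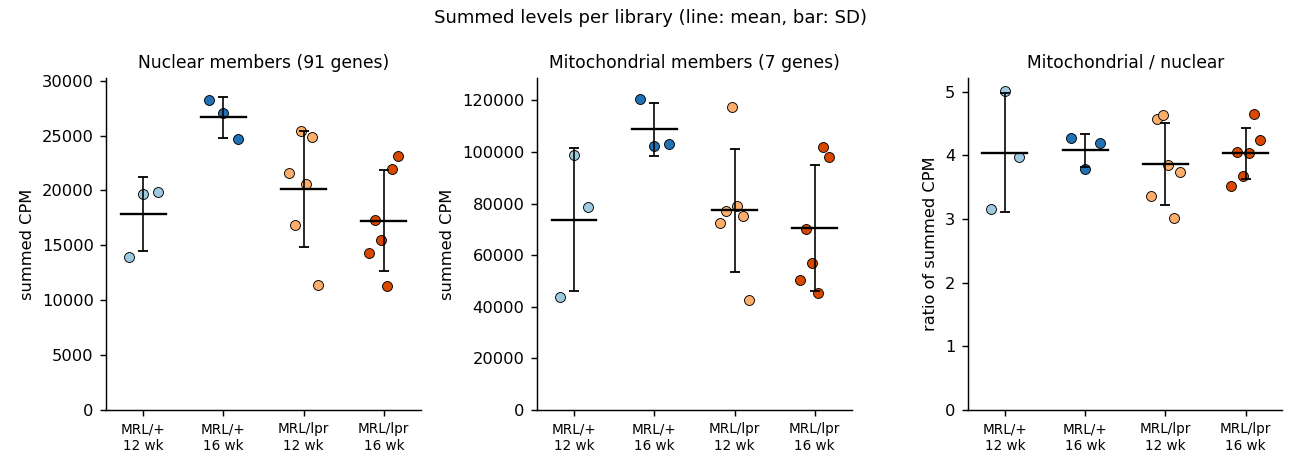
Summed CPM (TMM scaling) of the nuclear genes, of the mitochondrial genes and the ratio of both sums, with 1 point per library for the 4 groups on the horizontal axis; lines are means and bars SD. At 16 weeks the 3 MRL/+ libraries lie above all 6 MRL/lpr libraries in both sums but not in the ratio. With scaling to epithelium markers the log2 differences of the sums were 0.02 and 0.00284, and the median over all genes tested was 0.75.

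This difference depended on how libraries were scaled, and other measures moved with it. TMM factors were 0.859 to 0.92 in MRL/+ and 0.917 to 1.19 in MRL/lpr at 16 weeks. As a share of the library's counts without TMM, the mitochondrial genes took 9.62 ± 0.88% in MRL/+ (n = 3) and 7.27 ± 1.94% in MRL/lpr (n = 6), and the nuclear genes 2.36 ± 0.21% and 1.79 ± 0.36%, with overlap in both. The epithelium marker sum was 83711 to 88979 CPM in MRL/+ and 36863 to 76187 CPM in MRL/lpr, again without overlap, and 1 of the 12 epithelium markers was lower by edgeR's quasi-likelihood test with Benjamini-Hochberg adjustment. Sums over 8 T cell markers were 1.83 to 2.05 CPM in MRL/+ and 22.0 to 209 CPM in MRL/lpr, sums over 7 B and plasma cell markers 8.86 to 14.1 and 269.7 to 10416 CPM, and sums over 8 macrophage markers 109 to 165 and 378 to 2905 CPM, with 8, 7 and 7 of these markers higher. No marker of these 4 lists was at 0 in all libraries of a group at 16 weeks. Within MRL/lpr at 16 weeks, replicates 5 and 6 had the highest nuclear sums (21919 and 23172 CPM). They also had the lowest T cell sums (55.7 and 22.0 CPM). Replicate 4 had the lowest nuclear sum (11247 CPM) and the highest sums of T cell (209 CPM) and endothelium markers (167 CPM). At 12 weeks T cell sums did not follow this order throughout. MRL/lpr replicate 1 had the highest T cell sum (173 CPM) with a nuclear sum of 21586 CPM, and replicate 6 had 157 and 11393 CPM. MRL/+ replicate 1 had 2.35 and 13907 CPM. The latter libraries had endothelium sums of 169 and 104 CPM, against at most 66.5 CPM in the rest of 12 weeks. The part of cell makeup in the result was not tested.

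All 5 complexes shared the lower level at 16 weeks under TMM. The nuclear subunits of complex I summed to 4573 ± 1308 CPM in MRL/lpr (n = 6) and 7040 ± 465 CPM in MRL/+ (n = 3). The log2 difference of the nuclear sums was -0.67 for complex I (36 genes), -0.47 for complex II (4 genes), -0.80 for complex III (9 genes), -0.78 for complex IV (14 genes) and -0.57 for complex V (15 genes). None of these 5 sums overlapped between the strains. Complex II, the complex without mitochondrial subunits, had the smallest of the 5 differences, which were not tested against each other. The 5 mitochondrial genes of complex I differed by -0.73 without overlap, while mt-Cytb (-0.66) and mt-Co1 (-0.69) overlapped.

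Gene by gene, 10 of the 98 genes were lower in MRL/lpr at 16 weeks and 0 higher (edgeR's quasi-likelihood test with Benjamini-Hochberg adjustment over all genes, adjusted p under 0.05). Over all 16598 genes tested, 2.64% were lower and 8.49% higher. All 98 log2 fold changes were below 0 with TMM, 94 of them with total counts as library sizes, and 33 of them with scaling to the epithelium markers. Their median was -0.62, against 0.03 over all genes tested, and these became -0.39 and 0.28 with total counts and 0.07 and 0.75 with the epithelium scaling. With the epithelium scaling 44.4% of all genes tested were called higher in MRL/lpr and 0.157% lower. The levels of 54 of the 98 genes did not overlap between the strains and were lower in MRL/lpr, against 8.75% of all genes tested. An unadjusted p under 0.05 was found for 67 of the 98, all lower, against 12.7% of all genes. Taken in either direction, that count was 2 with epithelium scaling, 26 with total counts and 27 without the 4 libraries with transcripts of other tissues. It was 31 and 44 without MRL/+ replicates 1 and 2. With epithelium scaling the smallest adjusted p of the 98 was that of Atp5sl, which was above 0 (0.584, adjusted p 0.0515). The 10 were 4 of 36 nuclear subunits of complex I, 1 of 4 of complex II, 1 of 9 of complex III, 3 of 14 of complex IV and 1 of 15 of complex V. None of the 7 mitochondrial genes passed (3 of them had an unadjusted p under 0.05), nor did any of 8 assembly factors of complex I (5 with an unadjusted p under 0.05). DESeq2 called 19 of the 98 lower, against 3.03% of all genes it tested, and voom with sample weights 88, against 14.8%.

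The count of 10 moved with single libraries, and so did the share of all genes that were lower, 2.64% with every library. Without MRL/+ replicates 1, 2 and 3 of 16 weeks the count was 0, 1 and 2, and the share 0.54%, 1.02% and 0.599%. Without each of MRL/lpr replicates 1 to 4 the count was 3, and the share 1.18%, 1.53%, 1.12% and 1.34%. Without MRL/lpr replicates 5 and 6 the count was 21 and 27, and the share 5.3% and 3.64%. The count was 0 without the 4 libraries with transcripts of other tissues (0.317% of all genes lower). Only MRL/+ replicate 1 of these is of 16 weeks, so this largely repeats its removal alone. With scaling to epithelium markers the count was 0 (0.157%). With total counts as library sizes it was 2, Cox7a1 and Cox5b (0.675% of all genes).

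**Figure D3:**
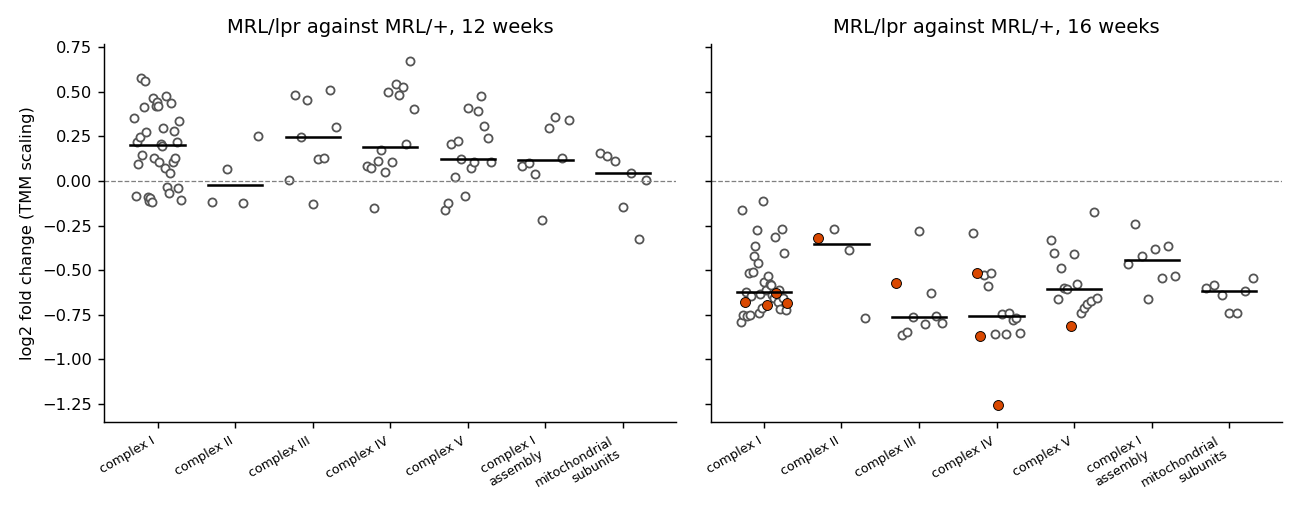
Log2 fold change of MRL/lpr against MRL/+ with TMM scaling (vertical axis) at 12 weeks and at 16 weeks, with 1 point per gene, grouped by complex; lines are medians and filled points are genes with an adjusted p under 0.05. At 12 weeks points lie on both sides of 0 and none is filled, and at 16 weeks all lie below 0 and 10 are filled. With scaling to epithelium markers 33 of 98 lay below 0 at 16 weeks, with a median of 0.07 against 0.75 over all genes tested.

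In complex IV, Cox7a1, the heart and muscle isoform of subunit VIIa (chromosome 7, 30184144 to 30186078), had the largest difference of the 98 genes. Its level was 39.8, 36.6 and 37.3 CPM in MRL/+ replicates 1 to 3 and 9.51 CPM at the lowest, 14.2 at the median and 23.7 at the highest in MRL/lpr at 16 weeks. All 6 MRL/lpr libraries lay below the MRL/+ libraries, with a log2 fold change of -1.25 (SE 0.32, adjusted p 0.0172, and 0.000794 to 0.103 over 19 alternatives). With scaling to epithelium markers it was -0.58. Cox5b, a matrix-side subunit (chromosome 1, 36691484 to 36693681), was at 220, 145 and 146 CPM in MRL/+ and at 78.1, 91.4 and 111 CPM at the lowest, median and highest of MRL/lpr. Replicate 1 of MRL/+ was well above the other 2, and all 3 were above MRL/lpr (log2 fold change -0.87, SE 0.22, adjusted p 0.0175, and 0.00438 to 0.549 over the alternatives). Cox5a, which binds next to Cox5b (chromosome 9, 57521274 to 57532426), was also lower (-0.52, SE 0.16, adjusted p 0.0467, and 0.0163 to 0.481 over the alternatives). It was at 37.5, 31.8 and 44.0 CPM in MRL/+ against 20.2, 27.3 and 30.3 CPM at the lowest, median and highest of MRL/lpr. Of the other 11 nuclear subunits of complex IV, the ubiquitous Cox4i1 had the smallest difference, at -0.29 (adjusted p 0.279).

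In complex I, the genes that passed came from different parts of the enzyme. Ndufs3, a core subunit of the peripheral arm (chromosome 2, 90894634 to 90904827), was at 129, 125 and 118 CPM in MRL/+ and 61.3, 79.0 and 101 CPM at the lowest, median and highest of MRL/lpr. Its log2 fold change was -0.63 (SE 0.17, adjusted p 0.0264, and 0.00202 to 0.76 over the alternatives), and 0.07 with scaling to epithelium markers. The accessory subunits Ndufv3 (chromosome 17, 31520115 to 31531326), Ndufa12 (chromosome 10, 94198955 to 94221443) and Ndufb7 (chromosome 8, 83566671 to 83571626) were lower by -0.69, -0.68 and -0.70 on the log2 scale. Their SEs were 0.20, 0.20 and 0.22, with adjusted p 0.0386, 0.0396 and 0.0467. Over the alternatives the adjusted p ran from 0.00255 to 0.959, from 0.00231 to 0.914 and from 0.00270 to 0.998. For Ndufv3 the highest MRL/lpr library (168 CPM) came within 1 CPM of the lowest MRL/+ library (169 CPM), while Ndufa12 (69.2 against 82.6 CPM) and Ndufb7 (155 against 183 CPM) were further apart. At the other end, Ndufb4 (-0.11, adjusted p 0.853) and Ndufa10 (-0.16, adjusted p 0.421) had the smallest differences of the complex, and both were above 0 with total counts as library sizes. Among the assembly factors, Ndufaf4 came nearest the threshold (-0.66, SE 0.21, adjusted p 0.0549).

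Sdha, the catalytic flavoprotein of complex II (chromosome 13, 74322254 to 74350280), stood at 439, 419 and 450 CPM in MRL/+ and at 323, 350 and 374 CPM at the lowest, median and highest of MRL/lpr. The log2 fold change was -0.32 (SE 0.10, adjusted p 0.0437) with TMM, -0.07 with total counts as library sizes and 0.40 with scaling to epithelium markers. In complex III, Cyc1 (cytochrome c1, chromosome 15, 76343523 to 76345934) was at 259, 282 and 294 CPM against 140, 182 and 246 CPM (-0.57, SE 0.18, adjusted p 0.0498), and was named after its values were seen. In complex V, Atp5g1, 1 of the genes for the rotor subunit c (chromosome 11, 96068852 to 96075670), was at 458, 481 and 398 CPM against 192, 237 and 356 CPM (-0.81, SE 0.24, adjusted p 0.0376). Each of these sets of 3 values gives MRL/+ replicates 1 to 3, then the lowest, median and highest MRL/lpr library. The groups did not overlap for these 3 genes. Over the alternatives the adjusted p ran from 0.00175 to 0.556 for Sdha, from 0.00318 to 0.619 for Cyc1 and from 0.00213 to 0.619 for Atp5g1.

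**Figure D4:**
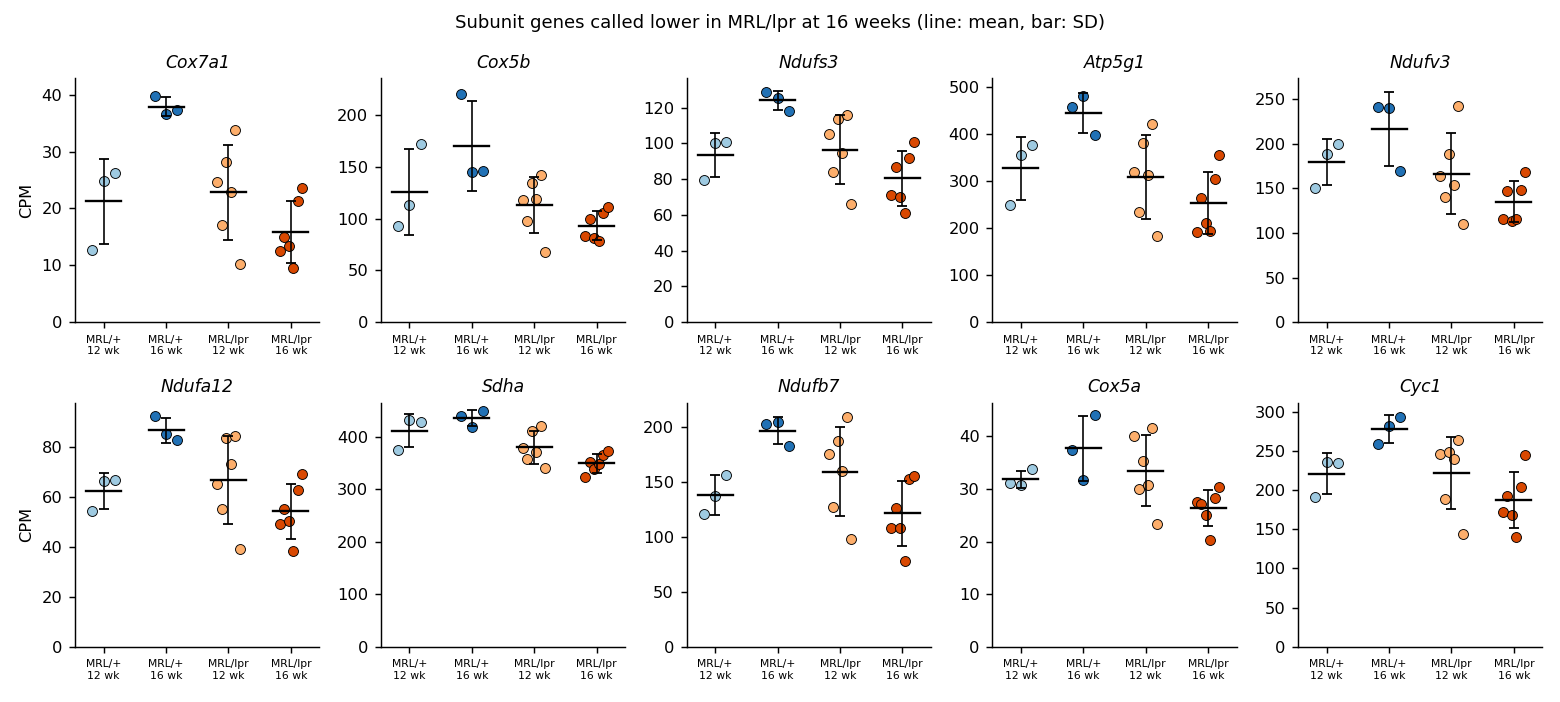
CPM (TMM scaling, vertical axis from 0) of the 10 genes with an adjusted p under 0.05 between the strains at 16 weeks, with 1 point per library in each of the 4 groups; lines are means and bars SD. At 16 weeks every MRL/+ library lies above every MRL/lpr library for each gene, while at 12 weeks the strains overlap. With scaling to epithelium markers none of the 10 passed and 6 of them turned above 0, with a median of 0.75 over all genes tested.

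At 12 weeks no gene of the 98 passed the test between the strains. Of the 98, 0 were higher or lower in MRL/lpr by edgeR's quasi-likelihood test, against 6.36% of all genes tested, and 0 had an unadjusted p under 0.05, against 12.1% of all genes on the higher and 9.33% on the lower side. DESeq2 and voom with sample weights also called 0. The log2 fold change was above 0 for 78 and below 0 for 20, with a median of 0.14 against -0.01 over all genes. With scaling to epithelium markers, 97 were above 0, with a median of 0.51 against 0.30 over all genes, and 44 had an unadjusted p under 0.05, though 0 were called. Without the 4 libraries with transcripts of other tissues, 41 were below 0 and the median was 0.01, and without MRL/+ replicate 1 alone, 40 were below 0 and the median was 0.04. An unadjusted p under 0.05 was found for 11 genes without MRL/lpr replicate 6, for 8 with voom, and for 1 each without MRL/lpr replicates 3 and 5. The nuclear sum was 13907, 19708 and 19859 CPM in MRL/+ and 11393 CPM at the lowest, 21065 at the median and 25424 at the highest in MRL/lpr. Replicate 1 of MRL/+, the library with the highest neuron and cerebellum marker sums, was the lowest of its group, and replicate 6 was the lowest of MRL/lpr. MRL/lpr replicate 6 of 16 weeks, with 443 CPM of neuron markers, had the highest nuclear sum of its group (23172 CPM). Its cerebellum marker sum was 101 CPM and its T cell marker sum 22.0 CPM. The part of other tissues in these sums was not tested. The log2 differences of the nuclear and mitochondrial sums were 0.14 and 0.09, and -0.01 and -0.23 without MRL/+ replicate 1. The largest differences upwards were those of the pseudogene Uqcrh-ps2 (0.88, adjusted p 0.317), Cox8b (0.67, adjusted p 0.426) and Ndufa2 (0.58, adjusted p 0.393). Downwards the largest was that of mt-Nd5 (-0.33, adjusted p 0.439). Uqcrh-ps2 held 5 to 39 counts per library, so its fold changes rest on few reads. Sdha, which was lower at 16 weeks, was at 375, 432 and 427 CPM in MRL/+ and at 340, 374 and 421 CPM at the lowest, median and highest of MRL/lpr at 12 weeks, with overlap (-0.11, SE 0.10, adjusted p 0.522).

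Between 12 and 16 weeks, no gene passed the test in MRL/+, where most estimates were above 0. There, 0 of the 98 genes were called and so were 0% of all genes tested. An unadjusted p under 0.05 was found for 27 of the 98, all higher, against 6.86% of all genes. Taken in either direction, that count was 2 without replicate 1 of 12 weeks, and 7 and 11 without replicates 1 and 2 of 16 weeks. It was 0 without the 4 libraries with transcripts of other tissues, and 67 with only these groups fitted. DESeq2 called 0 (45 at an unadjusted p under 0.05), and voom with sample weights called 31 of the 98 higher, against 5.41% of all genes. The log2 fold change was above 0 for 93 of 98, with a median of 0.56 against -0.05 over all genes, and 74 of the 98 were higher in every library of 16 weeks than in any of 12 weeks, against 15.3% of all genes. Above 0 were 81 of 98 with total counts as library sizes and 90 with scaling to epithelium markers. Ndufa4, which is now counted as a subunit of complex IV, was at 321, 688 and 612 CPM in MRL/+ at 12 weeks and at 1239, 1312 and 999 CPM at 16 weeks (1.13, SE 0.45, adjusted p 0.379). Every library of 16 weeks was above those of 12 weeks, where replicate 1 was lowest. Other large values were those of Uqcrh-ps2 (1.41), which rests on few reads, and Cox7b (1.16), a small subunit of complex IV. The lowest were those of Uqcrc1 (-0.07), Atp5sl (-0.05), a factor that is not a subunit of complex V, and Ndufa10 (-0.03). The nuclear and mitochondrial sums differed by 0.60 and 0.63 on the log2 scale, and by 0.45 and 0.32 without replicate 1 of 12 weeks. The same MRL/+ libraries of 16 weeks enter this comparison and the strain comparison at 16 weeks, so the results are not independent.

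In MRL/lpr the ages overlapped. Of the 98 genes, 0 were called (0 also by DESeq2 and by voom with sample weights), against 0.0361% of all genes tested. At an unadjusted p under 0.05 there were 7, all lower at 16 weeks, against 3.87% of all genes. With each library left out this count, taken in either direction, ran from 1 to 28. The lowest was without replicate 5 of 12 weeks or replicate 4 of 16 weeks, and the highest without replicate 6 of 12 weeks. The count was 19 without replicate 6 of 16 weeks and 0 with epithelium scaling. The log2 fold change of 16 against 12 weeks was below 0 for 93 genes with TMM, with a median of -0.23 against 0.02 over all genes. With scaling to epithelium markers it was below 0 for 27 genes, with a median of 0.05 against 0.32 over all genes. The nuclear sum was 11393 to 25424 CPM at 12 weeks and 11247 to 23172 CPM at 16 weeks. The lowest values were those of Cox7a1 (-0.52, adjusted p 0.769), and of the assembly factors Ndufaf6 and Ndufaf3, and Ndufb4 (0.10, adjusted p 0.942) and Ndufab1 (0.10, adjusted p 0.85) were the highest. Whether the strain difference itself changed with age was tested with the interaction term. It called 0 of the 98 genes and 0% of all genes, with 58 of the 98 at an unadjusted p under 0.05, all below 0 (7.25% of all genes), and 0 called by DESeq2 and voom. Taken in either direction, the count of 58 was 6 with epithelium scaling, 31 with total counts and 0 without the 4 libraries with transcripts of other tissues. It was 8 without MRL/+ replicate 1 of 12 weeks, 20 and 32 without MRL/+ replicates 1 and 2 of 16 weeks, and 29 and 32 without MRL/lpr replicates 3 and 5 of 12 weeks. All 98 interaction estimates were below 0 with TMM, 91 with total counts and 81 with scaling to epithelium markers. Cox7a1 had the smallest p of these (-1.36, SE 0.47, adjusted p 0.361), so a strain difference that changes with age was not shown for any single gene.

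Some subunits exist as a common and a tissue-restricted isoform, and the share of the restricted form does not depend on how libraries are scaled. Per kb, Cox8b made up 25.5 ± 3.70% of Cox8a and Cox8b together in MRL/+ at 16 weeks (n = 3), 24.8 ± 3.69% in MRL/lpr at 16 weeks (n = 6), 19.6 ± 3.36% in MRL/+ at 12 weeks and 24.8 ± 5.73% in MRL/lpr at 12 weeks. Cox7a1 made up 10.2 ± 1.29% of Cox7a1 and Cox7a2 in MRL/+ at 16 weeks and 7.58 ± 1.22% in MRL/lpr, with a highest MRL/lpr share of 10.02% and a lowest MRL/+ share of 9.39%. At 12 weeks the shares were 11.9 ± 0.79% and 9.37 ± 1.55%. The mean share of Cox7a1 was lower in MRL/lpr at both ages, with overlap between the strains at both, and this was not tested. Cox6b2, best known from testis, made up 10.4 ± 1.75% of Cox6b1 and Cox6b2 in MRL/+ at 16 weeks and 11.05 ± 2.28% in MRL/lpr. The lung isoform Cox4i2, the muscle isoform Cox6a2 and the hypoxia-induced Ndufa4l2 stayed under 0.5% of their pair in every group mean. Cox6a2 had 33 of its 133 counts in the MRL/+ library with muscle transcripts, where it reached 1.09% of the pair.

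The spread between libraries of a group differed among the 78 nuclear subunit genes, and it was larger for genes with short coding sequences. The median SD of log2 CPM within groups was 0.39 for these genes, 0.48 for the 7 mitochondrial genes and 0.33 for all genes tested. It was 0.47 for the 44 subunit genes with the shortest coding lengths, 0.37 for 22 of middle length and 0.18 for the 12 longest. Over all tested genes in the same classes of length the medians were 0.46, 0.32 and 0.29, with the shortest class close to that of the subunit genes. Across the 78 genes the SD had a Spearman correlation of -0.65 with coding length, against -0.09 over the 14568 tested genes with a coding length. These points share the same 18 libraries. The log2 fold change of 16 against 12 weeks in MRL/+ also went with coding length (-0.67 over the 78 genes, -0.44 over all), as did the strain difference at 12 weeks (-0.61 and -0.34) and, with the opposite sign, at 16 weeks (0.53 and 0.20). In the same order of length, the median log2 fold changes between the strains at 16 weeks were -0.70, -0.59 and -0.38, and 6, 1 and 3 genes were lower. Over all tested genes of these lengths the medians were -0.19, -0.12 and 0.08, and 24 of 1046, 118 of 2797 and 269 of 10725 were lower. Sdha, with a long coding sequence, had the smallest SE of the 10 genes that passed. The part of transcript length or RNA quality in the differences was not tested.

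**Figure D5:**
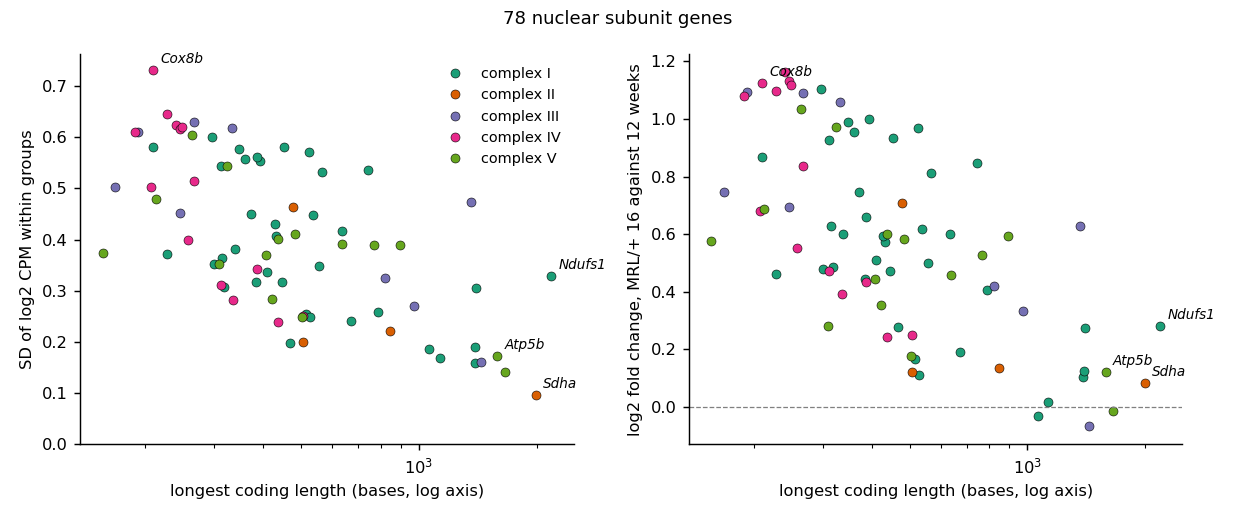
For the 78 nuclear subunit genes, the SD of log2 CPM within groups (left) and the log2 fold change of MRL/+ at 16 against 12 weeks with TMM scaling (right) against the longest coding length in bases on a log axis, with 1 point per gene coloured by complex. Short genes such as Cox8b lie at high spread and long ones such as Sdha at low spread, with a Spearman correlation of -0.65 on the left and -0.67 on the right.

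Promoters were examined because the estimates of the nuclear genes shared 1 direction at 16 weeks with TMM. RefSeq promoters of GRCm38.p6, from 250 bases before to 50 after the start, matched 73 of the 98 genes by symbol. The string GCGCA followed by any base and GCGC, the core site of nuclear respiratory factor 1 (NRF1), was searched on both strands, like the strings after it, and found in 19 of the 73 promoters (26.0%) and in 5.19% of 27025 genes. AAGGTCA, the core site of oestrogen-related receptors, was in 8 of the 73 promoters and in 5.38% of all genes, CCGGAAGT, an ETS factor site, in 5 (6.8%) and 4.31%, and TATAAA in 6 (8.2%) and 15.67%. None of these strings contains another. Of the 9 genes with a promoter that were lower at 16 weeks, 1 held the NRF1 string (Sdha, with 3 matches), 1 the ETS string (Ndufs3) and 1 TATAAA (Ndufb7). Such a match describes the sequence and does not show binding. The stretches below run from 120 bases before the start to 30 after it, 5′ to 3′ on the gene's own strand, with the NRF1 string or its reverse complement in capitals. They show Sdha and, for complexes I, III, IV and V, the gene with a match in this stretch that had the highest level per kb.
Sdha (chr13:74350211-74350360, minus strand): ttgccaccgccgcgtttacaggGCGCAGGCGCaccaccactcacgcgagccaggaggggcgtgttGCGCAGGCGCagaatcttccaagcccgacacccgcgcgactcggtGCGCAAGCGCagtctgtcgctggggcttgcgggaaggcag
Ndufs6 (chr13:73328453-73328602, minus strand): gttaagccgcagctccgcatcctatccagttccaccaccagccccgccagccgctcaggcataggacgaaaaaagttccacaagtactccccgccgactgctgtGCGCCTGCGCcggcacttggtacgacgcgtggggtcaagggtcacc
Uqcrc1 (chr9:108936528-108936677, plus strand): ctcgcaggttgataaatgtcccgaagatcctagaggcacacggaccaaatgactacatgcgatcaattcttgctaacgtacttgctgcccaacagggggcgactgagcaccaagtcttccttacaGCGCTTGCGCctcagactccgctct
Cox6a1 (chr5:115348929-115349078, minus strand): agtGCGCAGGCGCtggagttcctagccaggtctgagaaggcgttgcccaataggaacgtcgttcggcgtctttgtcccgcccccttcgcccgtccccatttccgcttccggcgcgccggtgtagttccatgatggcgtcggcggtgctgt
Atp5k (chr5:108434370-108434519, minus strand): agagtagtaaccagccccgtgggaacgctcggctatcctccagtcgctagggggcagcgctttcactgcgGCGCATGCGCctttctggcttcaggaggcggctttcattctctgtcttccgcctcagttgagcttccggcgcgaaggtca

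Other genes of mitochondrial energy metabolism, taken from fixed lists, were compared at 16 weeks with TMM. For comparison, 2.64% of all genes tested and 10 of the 98 oxidative phosphorylation genes were lower. None of the lists held a gene that was higher, and the lists were not tested against each other. Of 36 assembly factors outside the name rule 1 was lower, Coa7 of complex IV assembly (11.1 ± 1.19 CPM in MRL/lpr against 17.1 ± 1.36 in MRL/+, log2 fold change -0.63, adjusted p 0.00527). Of 79 mitochondrial ribosomal proteins 4 were lower, Mrps34 (-1.37), Mrps25 (-0.61), Mrps2 (-0.39) and Mrpl49 (-0.40), with adjusted p 0.0179, 0.0265, 0.0196 and 0.0355. Mrps34 was at a low level, 0.94 ± 0.29 CPM in MRL/lpr and 2.45 ± 1.27 CPM in MRL/+, so its fold change rests on few reads. Of 16 genes of pyruvate dehydrogenase and the citric acid cycle 2 were lower, Idh3a (-0.47, adjusted p 0.0241) and Idh3g (-0.39, adjusted p 0.0443), both subunits of isocitrate dehydrogenase. Of 11 electron and nucleotide carriers 3 were lower, the ATP/ADP translocases Slc25a4 (-0.66, adjusted p 0.0399) and Slc25a5 (-0.49, adjusted p 0.035) and the electron transfer flavoprotein dehydrogenase Etfdh (-0.57, adjusted p 0.0173). Of 18 glycolysis genes 1 was lower, the lactate dehydrogenase subunit Ldhb (-0.64, adjusted p 0.0355).

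Median log2 fold changes of these lists at 16 weeks were -0.54 for the carriers, -0.42 for the mitochondrial ribosome, -0.38 for the citric acid cycle, -0.29 for the assembly factors and -0.10 for glycolysis, against -0.62 for the oxidative phosphorylation genes. None of 22 genes that maintain and express mitochondrial DNA passed at 16 weeks (7 had an unadjusted p under 0.05, median -0.23). Among these were Esrra, an oestrogen-related receptor (-0.47, adjusted p 0.0556), and the coactivator Ppargc1a, at 45.3 ± 4.17 CPM in MRL/lpr and 60.02 ± 8.43 CPM in MRL/+ (-0.40, adjusted p 0.103). At 12 weeks 1 gene of the 6 lists passed, Mrps2, at 26.7 ± 3.52 CPM in MRL/lpr (n = 6) and 36.6 ± 2.59 CPM in MRL/+ (n = 3), a log2 fold change of -0.46 (adjusted p 0.0125).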

How the data were processed

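The authors deposited 1 table of read counts per gene for all 18 libraries. Per the labels' protocols, choroid plexus was flash frozen, RNA was extracted with a Zymo kit and libraries were made with a TruSeq RNA kit. Per the submitters' processing notes, STAR 2.5.3a, featureCounts 1.26.0, DESeq2 1.16.1 and the build GRCm38 were used. Not given in the sources used here were the annotation release, the strand setting and the treatment of reads with several alignments. Every column was mapped to a sample (0 left over). Counts were analysed in R 4.3.3 with edgeR 4.0.16: genes with low counts were removed by group (16598 of 50584 genes kept), libraries were scaled with TMM, and the 18 libraries entered a robust quasi-likelihood fit in which every group had its own mean. P-values were adjusted by Benjamini-Hochberg over all genes tested, at a threshold of 0.05. Log2 CPM used a prior count of 2. Alternatives were DESeq2 1.42.0 and its size factors, voom with sample weights (limma 3.58.1), no filter, scaling to nuclear genes or to epithelium markers, a replicate block, the compared groups alone, leaving out 4 libraries with transcripts of other tissues or each library in turn, and total counts as library sizes, which was chosen after seeing the data. The test was tested on simulated data. Genes and lists were chosen with earlier results of these data known. Genes named are those called (up to 8 per comparison and direction, by p), the highest and lowest level per kb of each complex, the mitochondrial genes, isoform pairs, and the most extreme fold changes of each comparison. Promoters are from RefSeq (GRCm38.p6) and gene models from GENCODE M21. Total counts per library, 11164284 to 14602253, bound the precision, and count floors cover counting error only.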

Additional observations from a re-analysis of the deposited data

How the results depend on the processing

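At 16 weeks, 10 genes were lower in MRL/lpr, against 2.64% of all genes tested. This count was 6 with DESeq2 size factors (2.16% of all genes lower), 3 without the filter (0.536%) and 0 with scaling to epithelium markers (0.157%). It was 2 with total counts (0.675%), 19 with the DESeq2 test (3.03%) and 88 with voom (14.8%). With only the compared groups it was 6 (1.88%), and without the 4 libraries with transcripts of other tissues 0 (0.317%). It ranged from 0 (0.54%) to 27 (3.64%) when each library was left out. Replicate numbers showed no clear pairing of the samples. Correlations of deviations ran from -0.62 to 0.45 between the ages of MRL/lpr, where 2 of 6 correlated best with their own number. They ran from -0.05 to 0.38 between the ages of MRL/+ (1 of 3). Between the strains they ran from -0.27 to 0.22 at 12 weeks (0 of 3) and from -0.49 to 0.06 at 16 weeks (1 of 3). So few pairs cannot show whether libraries with the same number belong together. With the replicate block the count was 1 (1.28% of all genes lower). Voom called 31 genes between ages in MRL/+, against 0. With scaling to epithelium markers, which moved the median of all genes to 0.75, the strain differences at 16 weeks were 0.0250 for the nuclear and 0.00284 for the mitochondrial sum, and single genes turned above 0: Ndufs3 0.0743, Ndufa12 0.0298, Cox5a 0.211, Sdha 0.403, Cyc1 0.133, Ndufv3 0.0138, mt-Nd1 0.0163, mt-Co1 0.0617, mt-Nd5 0.0689, mt-Nd6 0.121, mt-Cytb 0.0879, Ndufb4 0.598, Atp5sl 0.584 and Ndufa10 0.565. With the same scaling Atp5a1 was 0.171 and Ndufaf4 0.114 at 12 weeks, and the interaction was 0.315 for Ndufa10, 0.255 for Atp5sl and 0.241 for Uqcrc1. With total counts, Ndufb4, Atp5sl and Ndufa10 were 0.115, 0.114 and 0.0842 at 16 weeks, and the interaction of Ndufa10, Atp5sl and Uqcrc1 was 0.181, 0.129 and 0.108. In MRL/lpr between ages mt-Nd4 was -0.0481 with the replicate block and -0.0855 with voom. With each library left out, Ndufb4 ran from -0.271 to 0.0632 between strains at 16 weeks and from -0.0338 to 0.286 between ages in MRL/lpr, mt-Nd4 from -0.129 to 0.187 there, and Ndufa10 from -0.0743 to 0.0216 and Atp5sl from -0.0929 to 0.0166 between ages in MRL/+. The interaction of Ndufa10 ran from -0.132 to 0.0313. The cause of these shifts was not tested. Of the values for single genes, 750 kept their direction and side of the threshold, 103 lost and 12 gained a call, and 38 changed sign. These pool 45 chosen pairs of gene and comparison, most of them not called in the main fit. All lost calls were those of the 10 genes called at 16 weeks. Of 19 alternatives, Cox5b kept its call in 15, Cox7a1 in 14, Ndufs3 in 12 and Ndufv3 in 8. Atp5g1 and Ndufa12 kept it in 7, Ndufb7 and Sdha in 5, and Cox5a and Cyc1 in 4. The sums kept their direction at 16 weeks when each library was left out (nuclear -0.763 to -0.531, mitochondrial -0.811 to -0.555).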
